A study of Rattus norvegicus with 12 samples.

Results

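Gene expression in the striatum right after a 40-minute exposure to carbon monoxide (CO) or to low oxygen was compared with the striatum right after the same time in air. The arrays were taken by their exposure and time labels, all at 0 h: 1 from 1000 ppm CO, 1 from 3000 ppm CO, 1 from 5% O2 and 1 from air. These are 4 of the 12 arrays of the series. Values given 3 at a time follow the order 1000 ppm CO, 3000 ppm CO, 5% O2 unless stated otherwise. The other 8, from 2, 6 or 12 h after an exposure, served as a second reference. All rats were male Sprague-Dawley rats with no genotype, age or drug difference given in the labels, and pentobarbital anaesthesia was given before the saline-perfused brain was taken. Both striata were dissected from a brain, and each exposure and time had 1 array. Air was sampled at 0 h only, so each comparison with air shares the same air array, and a difference between single arrays carries the animal, the dissection and the exposure together.

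CO binds the iron of hemoglobin in place of oxygen and so lowers the oxygen that blood carries, while breathing 5% O2 lowers the oxygen that enters the blood. Immediate early genes are transcribed within minutes of a stimulus, without the need for new protein. Some of them encode transcription factors, others encode proteins that end the response by removing phosphates, degrading RNA or slowing the cell cycle, and others are switched on in blood vessels by stretch or flow. The striatum is built mainly of medium spiny neurons, which carry dopamine receptors and send axons to the basal ganglia.

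Expression was measured on Agilent 1-colour arrays. A level here is the log2 of the array's processed signal minus the log2 of that array's 75th percentile, so 0 is a bright probe and about -5 is close to background, and a difference from air is a difference of 2 such levels. A gene was compared when its probe was well above background on the brighter array, and a dim side was set to the lowest level measured above background on its array, which makes the fold a lower limit ("at least"). Between 72.9% and 78.7% of spots were well above background on the 12 arrays and no spot was saturated.

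The arrays differed in their levels of cell type markers. Of 16 markers of medium spiny neurons, 10 were at least 2-fold higher after 1000 ppm CO (median difference 1.03), none passed 2-fold after 3000 ppm CO (0.17), and all 16 were at least 2-fold lower after 5% O2 (-3.23, from -4.65 for Gpr6 to -1.94 for Foxp1). The 10 higher were 62.5% of the list, beside 3.86% of all genes, and the 16 lower were 100.0%, beside 5.08%. Drd1, the dopamine D1 receptor, was at -1.01 in air, 0.00 after 1000 ppm CO, -0.92 after 3000 ppm CO and -4.99 after 5% O2. Of 11 markers of choroid plexus and ependyma, 11, 10 and 10 were at least 2-fold lower than air after 1000 ppm CO, 3000 ppm CO and 5% O2, with medians of -6.34, -3.94 and -2.47. These were 100.0%, 90.9% and 90.9% of the list, beside 6.36%, 2.15% and 5.08% of all genes. Septal and thalamic markers had medians of -2.50, -0.06 and 1.17. After 5% O2, 4 of these 8 were at least 2-fold higher (50.0%, beside 4.39% of all genes). The list had 1 lower member there (12.5%, beside 5.08%), which was Tnnt1 at -4.36 from air. In bulk tissue, fewer cells of a type and less RNA per cell cannot be told apart. Air and 3000 ppm CO lay on slide 1, 1000 ppm CO on slide 2 and 5% O2 on slide 3. Slide 1 was scanned in session 1, and the arrays of 1000 ppm CO and 5% O2 in session 2. So for 1000 ppm CO and 5% O2 against air, slide, scan session and exposure cannot be told apart.

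Promoter sequences of genes that were higher after every exposure are shown first, because 6 of the 7 lay above every later array at 0 h. They are those with a motif named below that the results describe at length, and not every such gene is shown: Fosl1 holds the core TGACG at 2 places and Klf4 holds none of the motifs searched. The sequences come from the RefSeq table of the GRCr8 assembly, in a window from 250 bases before to 50 bases after the gene's start, and each run shows a stretch of that window 5′ to 3′ on the gene's strand. Capitals mark the cyclic AMP response element TGACGTCA in Dusp1, Btg2, Ch25h and Ier2, its first 5 bases, TGACG, or their reverse complement CGTCA in Ccn1 and Apold1, and the CArG box, the serum response factor's motif, in Zfp36.
Dusp1: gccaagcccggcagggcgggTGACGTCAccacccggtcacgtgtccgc
Btg2: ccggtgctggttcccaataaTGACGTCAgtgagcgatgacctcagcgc
Ch25h: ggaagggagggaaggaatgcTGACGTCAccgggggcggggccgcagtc
Ier2: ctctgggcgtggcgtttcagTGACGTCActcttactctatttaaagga
Ccn1: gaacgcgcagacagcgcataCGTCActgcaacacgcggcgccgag
Apold1: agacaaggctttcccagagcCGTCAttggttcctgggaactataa
Zfp36: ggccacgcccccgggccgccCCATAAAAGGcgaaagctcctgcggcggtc

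In GRCr8 these stretches lie at chr10:17184709-17184756 on the plus strand (Dusp1), chr13:48087864-48087911 on the minus strand (Btg2), chr1:241429416-241429463 on the minus strand (Ch25h) and chr19:40399287-40399334 on the plus strand (Ier2). Those of Ccn1, Apold1 and Zfp36 lie at chr2:237225732-237225776 on the minus strand, chr4:169552537-169552581 on the plus strand and chr1:92799111-92799160 on the minus strand. All 7 stretches end upstream of the annotated start. A promoter was in the table for 8 of the 14 named genes that were higher after all 3 exposures. The full element TGACGTCA, which reads the same on both strands, was in 3 of these 8 (Dusp1, Btg2 and Ch25h), in 0 of the 8 promoters of the named lower genes and in 612 of all 33469 promoters of the same length (1.83%). The shorter core TGACG, searched on both strands and counted also inside the full element, was in 6 of the 8 higher, 0 of the 8 lower and 21.2% of all promoters. The AP-1 motif TGANTCA was in 0 of the 8 higher, 1 of the 8 lower (F5) and 7.33% of all promoters. The core of the hypoxia response element, ACGTG on either strand, was in 2 of the 8 higher, 1 of the 8 lower and 19.3% of all promoters. A CArG box was in 1.64% of all promoters and in none of these 16. Of the 10 genes with a symbol that lay above every later array, 8 had a promoter in the table, and TGACGTCA was in 3 of them (Dusp1, Btg2 and Ier2), TGACG in 6, TGANTCA in 0, ACGTG in 2 and the CArG box in 1 (Zfp36). These matches describe letters in a window and are not measurements of binding.

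The first question was which genes moved the same way after all 3 exposures. After 1000 ppm CO, 1017 of 26341 compared genes were at least 2-fold higher than air (3.86%) and 1674 lower (6.36%). After 3000 ppm CO, 566 of 26424 were higher (2.14%) and 567 lower (2.15%; 133 and 241 with normexp background correction), and after 5% O2, 1198 of 27266 were higher (4.39%) and 1384 lower (5.08%). Of 25904 genes or transcripts compared after all 3 exposures, 105 were at least 2-fold higher each time (0.405%, 40 with a gene symbol) and 290 were at least 2-fold lower each time (1.12%, 161 with a symbol). With 1 array per exposure these counts have no replicate check, and the shared air array enters all of them. Just inside the threshold, Bhlhe40 was 1.00 above air after 1000 ppm CO and so counted among the 105, and just outside it Klf2 was 0.99 above air after 5% O2 and so did not.

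The 105 higher genes were of different kinds when the 8 later arrays were set beside them. Of the 105, 10 were at least 2-fold above air in all 8 later arrays too, 84 in some and 11 in none. In all, 13 lay above every later array right after each of the 3 exposures, against 102 of all 25904 genes that did so whatever their level in air (0.394%). The 105 were chosen by the same 0 h values, so the rule itself favours such a place, and these counts are not a test. Of these 13, 10 have a symbol: Ccn1, Apold1, Atf3, Dusp1, Btg2, Klf4, Ier2, Fosl1, Zfp36 and Bcl6b. The median difference from air over the 105 was 1.49 at 0 h and 1.34 in the later arrays, and 49 of the 105 were not well above background in air.

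**Figure D1:**
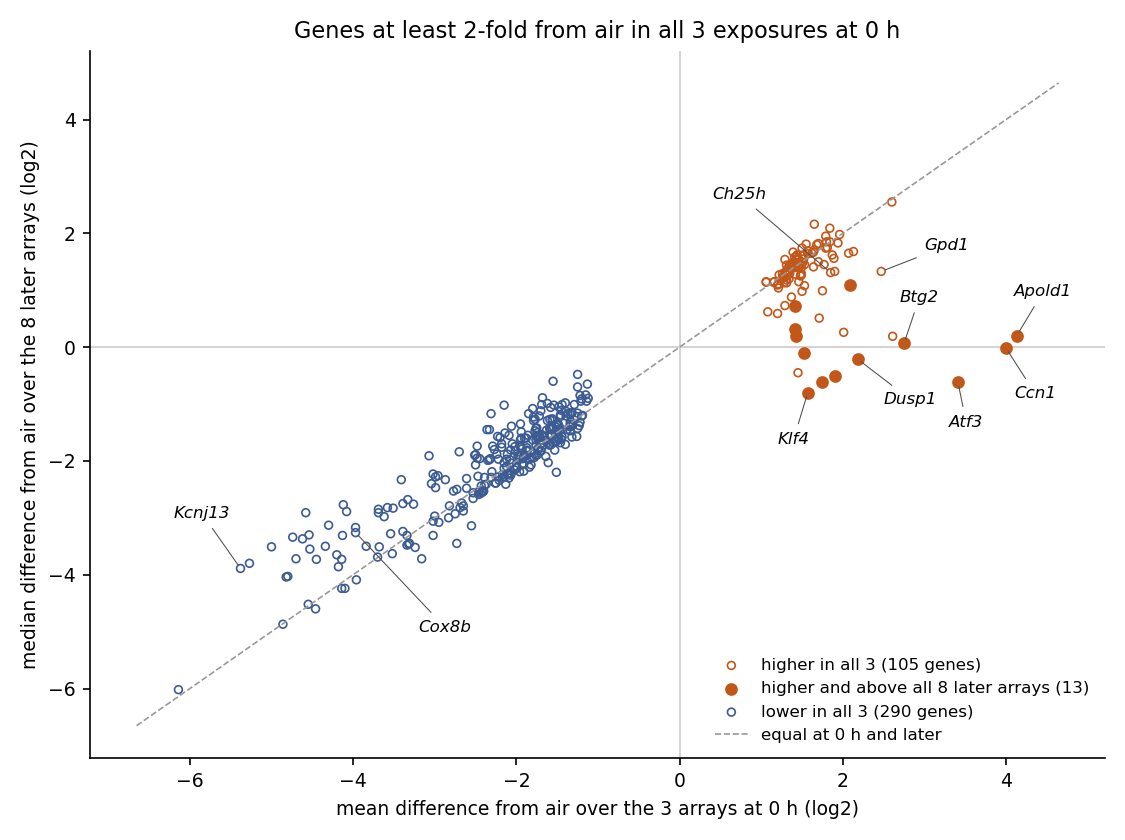
Mean difference from air right after the 3 exposures (horizontal axis, log2) against the median difference from air over the 8 later arrays (vertical axis, log2) for the 105 genes higher and the 290 genes lower after all 3 exposures; filled points are the 13 genes above every later array, and the dashed line marks equal differences. Over all 105 higher genes the median was 1.49 at 0 h and 1.34 later, while the filled points include Ccn1, at 4.00 at 0 h and -0.02 later.

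The same 9 genes or transcripts, 6 of them with a symbol, stayed at least 2-fold higher after all 3 exposures when the reference, the background correction, the scaling or the handling of several probes was changed: Apold1, Atf3, Btg2, Ccn1, Dusp1, Klf4 and the transcripts XM_213050, BG664685 and FQ076543. Against the median of all 12 arrays in place of air, 15 genes were higher after all 3 exposures, 12 of them among the 105, and 0 were lower. In that comparison the smallest of the 3 differences was 3.77 for Ccn1, 2.97 for Apold1, 2.27 for Atf3, 1.94 for Klf4, 1.61 for Dusp1, 1.55 for Btg2, 1.55 for Klf2, 1.46 for Nr4a1, 1.25 for Zfp36, 1.05 for Ier2 and 1.01 for Ntf3.

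Genes known from vessel walls led the list. Ccn1 encodes a secreted matrix protein induced by stretch and growth factors, and its brighter probe lies at chr2:243824388-243824447 in rn4. Its level was -2.93 in air, 1.25 after 1000 ppm CO, 0.89 after 3000 ppm CO and 1.08 after 5% O2, which are 18.1-fold, 14.2-fold and 16.1-fold above air. The 3 exposed arrays stood close together and far above air, and the 8 later arrays were between -0.58 and 0.27 from air. A second, dimmer probe of Ccn1 gave smaller differences of 2.14, 1.42 and 1.54. Apold1, an endothelial early gene (probe at chr4:171907496-171907555), was at -1.66 in air, 1.67 after 1000 ppm CO, 2.43 after 3000 ppm CO and 3.29 after 5% O2. These values are 10.1-fold, 17.0-fold and 31.1-fold above air, and the later arrays were between -0.48 and 0.69 from it.

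The Krüppel-like factors Klf2 and Klf4 are transcription factors that blood flow induces in endothelium. Klf4 (chr5:73446994-73447053) was at -0.48 in air and at 0.78, 1.58 and 0.90 after 1000 ppm CO, 3000 ppm CO and 5% O2. All 8 later arrays were below air for Klf4, from -1.12 to -0.59, so the 0 h arrays were the only ones above air. Klf2 (chr16:17942544-17942603) was at -2.25 in air and at -0.18, -0.53 and -1.25 in the same order, and its later arrays were also all below air, from -1.27 to -0.32. Ccn2, a close relative of Ccn1, was 2.35, 1.12 and 1.78 above air, but its later arrays reached from -0.03 to 1.99 and so overlapped the 0 h values. Edn1, the precursor of the vasoconstrictor endothelin, was 2.15 above air after 1000 ppm CO and 0.08 and 0.69 after the other two. Adamts1, a secreted metalloprotease, was -0.44, 1.10 and 0.56 from air.

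Of the list of Krüppel-like and vascular early genes, 6 of 13 compared members were at least 2-fold higher after 1000 ppm CO, 6 of 13 after 3000 ppm CO and 5 of 14 after 5% O2, where 1 was lower. Those higher were 46.2%, 46.2% and 35.7%, beside 3.86%, 2.14% and 4.39% of all genes. The 1 lower was 7.14%, beside 5.08%. For this and every other list, members were chosen with earlier results of these data known. Shares of a list beside all genes are therefore description and not independent support. The median differences of the compared members were 0.91, 0.65 and 0.62, beside 0.01, 0.02 and 0.03 over all genes compared. Over the 16 members well above background on any of the 12 arrays the medians were 0.31, 0.30 and 0.55. Of its 18 members, 4 (Ccn1, Ccn2, Apold1 and Klf4) were higher after all 3 exposures, beside 0.405% of all genes. The level of 13 endothelial and pericyte markers moved less, with medians of 0.15, 0.29 and 0.09, although Pecam1, an endothelial adhesion molecule, was -0.56, 1.16 and 1.37 from air. The part of vessel content in these values was not tested.

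Transcription factors of the early response formed the next group. Atf3, a stress-induced factor of the ATF/CREB family (probe at chr13:107191691-107191749), was at -2.51 in air, -0.35 after 1000 ppm CO, 1.40 after 3000 ppm CO and 1.64 after 5% O2. These are 4.47-fold, 15.1-fold and 17.8-fold above air, with 1000 ppm CO the lowest, and the later arrays were between -1.93 and 0.18 from air. Ier2, a small nuclear early response protein, was at 1.10 in air and at 2.20, 2.96 and 2.69 after the exposures, while the later arrays stayed between -0.26 and 0.38 from air. Fosl1, a member of the Fos family, was 1.61, 1.08 and 1.54 above air from a low level of -4.90, and its later arrays reached 1.01. Bcl6b, a transcriptional repressor, was 1.02, 1.66 and 1.58 above air, with later arrays from -0.84 to 0.69.

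The best-known members did not move alike. Fos was at 0.41 in air and at -0.08, 1.62 and 0.83 after 1000 ppm CO, 3000 ppm CO and 5% O2, so only 3000 ppm CO passed 2-fold, while all later arrays were lower than air by at least 1.18 (from -2.34 to -1.18). Jun was 0.43, 0.91 and 1.26 above air, Junb 1.19, 0.61 and 0.10, and Nr4a1, an orphan nuclear receptor, 0.82, 0.93 and 0.46. Csrnp1, a nuclear protein of the early response, was -0.09, 0.90 and 1.52 from air by its brighter probe. A second probe of Csrnp1 differed by -0.52, 0.43 and 0.11. Of the list of early transcription factors, 5 of 20, 4 of 20 and 5 of 21 compared members were at least 2-fold higher. In the same order, 0, 0 and 4 were lower. Of all genes, 3.86%, 2.14% and 4.39% were higher and 6.36%, 2.15% and 5.08% lower. The medians of the list were 0.42, 0.23 and 0.34.

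Genes that slow or end the response made up another group. Dusp1, a phosphatase that switches off MAP kinases (probe at chr10:16944342-16944661), was at -2.37 in air, -0.66 after 1000 ppm CO, -0.01 after 3000 ppm CO and 0.10 after 5% O2, or 3.27-fold, 5.12-fold and 5.52-fold above air. Btg2, an antiproliferative gene (chr13:47027022-47027081), was at -0.31, 1.35, 2.97 and 2.99 in the same order, or 3.16-fold, 9.73-fold and 9.84-fold above air. Both genes were lowest after 1000 ppm CO among the 3 exposures, and their later arrays ranged from -0.55 to 0.80 and from -0.18 to 0.22 from air.

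Zfp36, which binds and destabilizes cytokine mRNAs (chr1:83486788-83486847), was dim, at -5.09 in air and -4.07, -2.07 and -3.44 after the exposures. Only 2 of its 8 later arrays were well above background. Rgs1, which shortens G protein signalling, was not well above background in air and was at least 2.09-fold, 5.00-fold and 6.26-fold higher after 1000 ppm CO, 3000 ppm CO and 5% O2. Sik1, a kinase induced by cyclic AMP, was 0.72, 1.14 and 1.74 above air, with later arrays from -0.27 to 0.37. Of the 27 members of the list of response brakes, 7, 5 and 7 were at least 2-fold higher and 1, 0 and 4 lower, with medians of 0.31, 0.30 and 0.42. Those higher were 25.9%, 18.5% and 25.9%, beside 3.86%, 2.14% and 4.39% of all genes. Those lower were 3.7%, 0.0% and 14.8%, beside 6.36%, 2.15% and 5.08%.

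**Figure D2:**
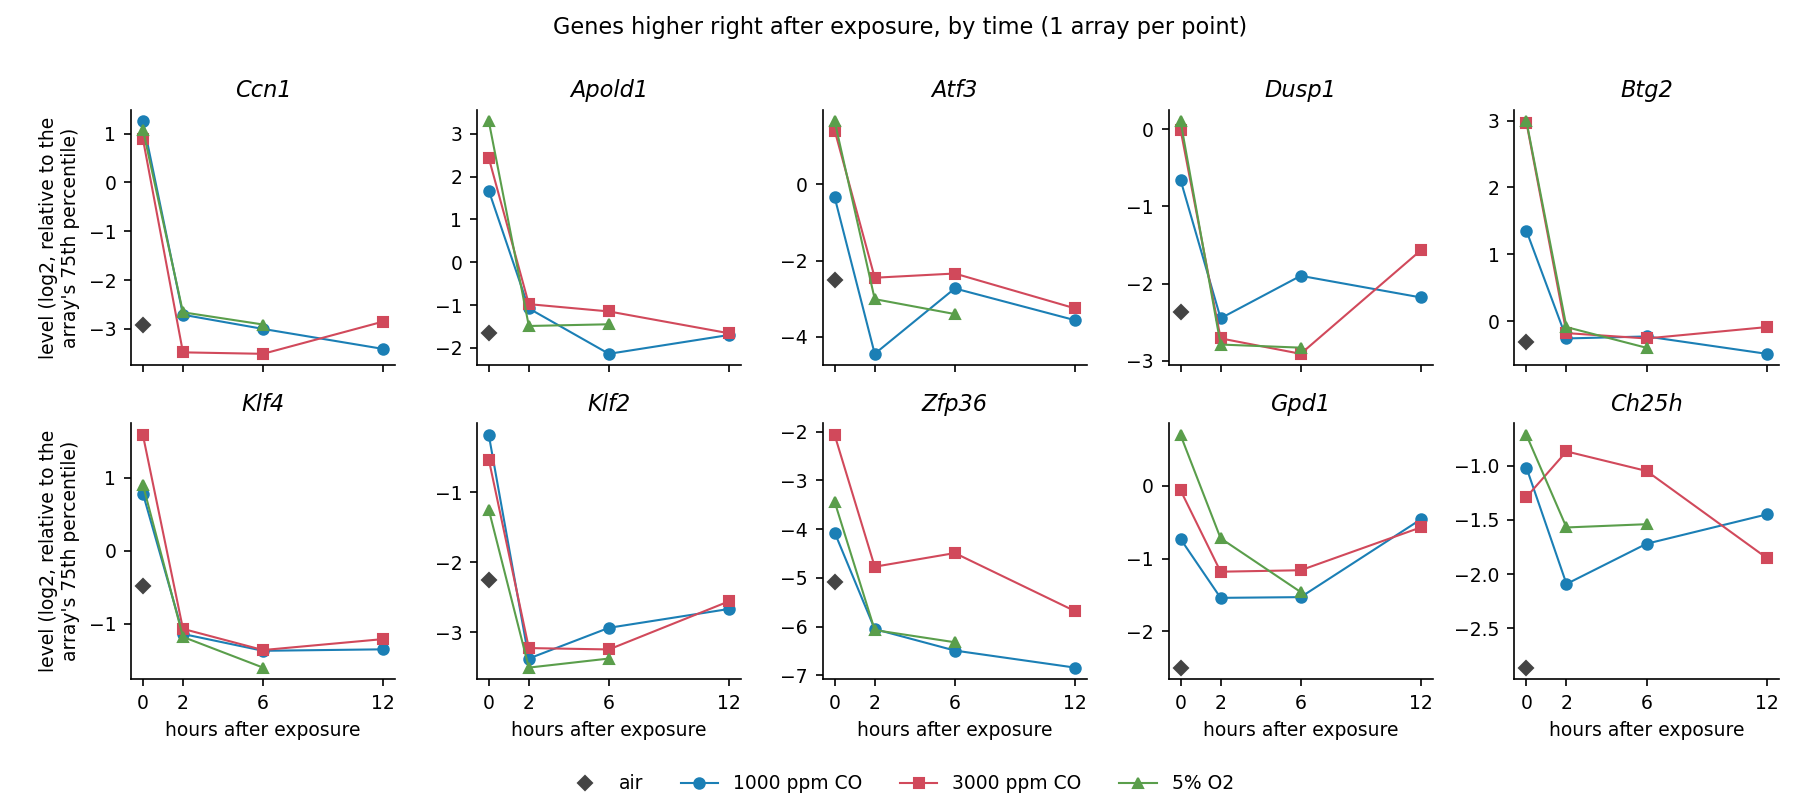
Level (log2 of processed signal minus the array's 75th percentile) of 10 genes against hours after exposure, with 1 array per point and a line for each exposure; air was sampled at 0 h only. Ccn1, Apold1, Atf3, Dusp1, Btg2, Klf4, Klf2 and Zfp36 were higher at 0 h after each exposure than on any later array, while Gpd1 and Ch25h stayed above air at all later times.

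Gpd1 and Ch25h were above air at 0 h and on all 8 later arrays. Gpd1, the cytosolic glycerol-3-phosphate dehydrogenase that links glycolysis to lipid synthesis (probe at chr7:138460549-138461244), was at -2.50 in air, -0.73 after 1000 ppm CO, -0.06 after 3000 ppm CO and 0.70 after 5% O2. These are 3.40-fold, 5.44-fold and 9.15-fold above air, and the 8 later arrays were 0.95 to 2.04 above it. Ch25h, which makes 25-hydroxycholesterol (chr1:238457456-238457515), was at -2.86, -1.02, -1.29 and -0.72 in the same order, and its later arrays were 0.77 to 1.99 above air. For both genes the air array was the lowest of the 12.

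The other 7 named higher genes were dim, and each was above air on all 8 later arrays, with later medians of 1.40 to 1.67. Hoxc4, a homeobox factor, was at -5.31 in air and 1.58, 1.56 and 1.78 above it after 1000 ppm CO, 3000 ppm CO and 5% O2. Ptk6, a tyrosine kinase, and Tas2r118, a bitter taste receptor, were not well above background in air and were higher by at least 1.54, 1.66 and 1.66, and by at least 1.48, 1.30 and 1.48, on the log2 scale. Col7a1, a collagen of skin, Ly6g6d, Ccl11, a chemokine for eosinophils, and S100a8, a neutrophil calcium-binding protein, were between 1.26 and 2.00 above air. The later arrays of these genes were widely spread, from 0.36 to 2.20 above air for Ccl11, 0.39 to 2.13 for Tas2r118, 0.84 to 2.16 for Hoxc4 and 0.47 to 3.36 for S100a8. Against the median of the 12 arrays the mean difference of these 7 genes was between -0.03 (Ptk6) and 0.23 (S100a8), and with the normexp background correction it was between 0.69 (Ccl11) and 0.81 (Col7a1). So their place in the list depends on the reference and on how background is removed.

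Across all 12 arrays, in a limma fit with exposure and time as factors (Benjamini-Hochberg adjusted p), the 3 exposed 0 h arrays were tested against air. No gene passed the threshold of 0.05 upward (0.0%) and 1 of 27042 passed downward (0.0037%), while 969 upward and 900 downward had an unadjusted p under 0.05. The one was BM389752, an expressed sequence tag with no symbol. It was at -1.79 in air and at -5.12, -5.54 and -5.33 after the exposures, a difference of -3.54 ± 0.23 (SE, adjusted p = 0.0242 by limma). Its 8 later arrays were from -3.47 to -2.91 from air, so air was the highest of the 12 arrays. Its call was lost without any 1 of 8 arrays, which were those of 0, 2 or 12 h in both CO doses and those of 0 or 6 h in low oxygen. Ccn1 differed by 4.00 ± 0.35 (SE, limma adjusted p = 0.0919) and Apold1 by 4.13 ± 0.51 (0.163), and neither passed. With 1 air array, the fit assumes that air varies as the exposed arrays do.

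Set against the 6 arrays from 2 and 6 h after exposure in the same fit, the 3 exposed 0 h arrays had 6 of 27042 genes higher (0.0222%) and 0 lower (0.0%), with 471 higher and 444 lower at an unadjusted p under 0.05. Of the 6, 5 have a symbol. Ccn1 was 4.12 ± 0.22 higher (SE, limma adjusted p = 0.00292), Klf4 2.38 ± 0.15 (0.00528), Klf2 2.62 ± 0.17 (0.00528), Zfp36 2.51 ± 0.18 (0.0114) and Apold1 3.85 ± 0.32 (0.021), each higher in 3 of 3 exposures. The sixth, transcript XM_213050 (probe at chr5:162464991-162465050), was 2.33 ± 0.12 higher (limma adjusted p = 0.00292); it was at -1.68 in air and at -0.02, 0.44 and -0.21 after 1000 ppm CO, 3000 ppm CO and 5% O2. The size for Zfp36 is uncertain, since only 2 of the 6 arrays it was set against were well above background and the difference was 0.56 with normexp (limma adjusted p = 0.784). This comparison uses the same 3 exposed arrays as the one with air, so it is not a second set of animals at 0 h.

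Of the members of the 2 lists concerned, 4 of 14 in the Krüppel-like and vascular list and 1 of 27 in the brakes list were among those 6 genes, and no member of any other list was. The 6 were 0.0222% of all genes tested, so having none does not set the other lists apart. Atf3 was 3.96 ± 0.43 higher (limma adjusted p = 0.0919), Btg2 2.67 ± 0.30 (0.112), Dusp1 2.41 ± 0.30 (0.188), Fos 1.96 (0.186), Nr4a1 2.00 (0.194) and Ier2 1.47 (0.0919), and none of these passed. Ccn1 and XM_213050 passed whichever single array was left out. With normexp background correction 3 genes passed (Ccn1, Klf4 and Apold1), and with slide position in the model 1 did (Ccn1). Within each exposure the position on the slide rose with time, so position and time can hardly be told apart in this comparison. Only the 3000 ppm CO array of 12 h, at position 1 of slide 3, broke this order. With slide as a fixed factor 5 passed, and Apold1 was the one lost (adjusted p = 0.0919). The call of Klf4 was lost without the 5% O2 array of 0 h (adjusted p = 0.0654) and that of Klf2 without the 3000 ppm CO array of 0 h (0.0757). That of Zfp36 was lost without any 1 of 5 arrays (times 0 and 2 h of 3000 ppm CO, any time of 5% O2), and that of Apold1 without any 1 of 8 (times 6 and 12 h of 1000 ppm CO, any time of 3000 ppm CO, times 0 and 6 h of 5% O2). Without the 2 arrays lowest in medium spiny neuron markers, 5% O2 at 0 h and 1000 ppm CO at 6 h, an alternative added after seeing the data, 0 genes passed, 1569 had an unadjusted p under 0.05, and Ccn1 was 4.31 higher (adjusted p = 0.0756).

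The 290 lower genes were below air on later arrays too, though not all of them on every one. Of the 290, 89 were at least 2-fold lower than air in all 8 later arrays, 201 in some and 0 in none. The later differences use the same air array by which the 290 were chosen. Of the 290, 0 lay below all later arrays at 0 h, against 75 of all 25904 genes (0.29%). At so small a share, 0 of 290 does not set these genes apart. The median difference over the 290 was -1.96 at 0 h and -1.88 later, and 39 were well above background in air only. The 290 were 1.12% of all genes compared. Most lists had none of them, which at that share does not set those lists apart. Only the choroid plexus and ependyma list had any, with 10 of its 11 members. In the later arrays of 1000 ppm CO (2, 6 and 12 h) its median was -5.36, -0.83 and -2.05, in those of 3000 ppm CO it was -5.52, -4.58 and -6.16, and in those of 5% O2 (2 and 6 h) it was -0.73 and -0.36. The part of choroid plexus content in the lower genes was not tested.

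Among the named lower genes, Cox8b, a subunit of cytochrome c oxidase found in muscle and brown fat, was at 2.10 in air and at -2.06, -1.83 and -1.72 after 1000 ppm CO, 3000 ppm CO and 5% O2. That is 17.9-fold, 15.2-fold and 14.1-fold lower, with the 3 exposed arrays alike, and the later arrays were -4.21 to -0.89 from air. Scgb1c1, a secretoglobin, was at 3.51 in air and at -3.36, -0.06 and -0.64, so it differed most after 1000 ppm CO. F5, coagulation factor V, was at 1.26 in air and at -4.17, -2.58 and -1.90. Glycam1, a mucin-like ligand of L-selectin, was -5.63, -3.27 and -3.52 from air. Prlr, the prolactin receptor, was at least 36.8-fold lower after 1000 ppm CO, where it was not well above background, and 15.3-fold and 8.86-fold lower after the others. Adipoq, the fat hormone adiponectin, was at least 34.0-fold, 26.9-fold and 11.4-fold lower in the same order. The olfactory receptor genes Olr1428 and Or8k30b were well above background in air and on none of the 3 exposed arrays, at least 13.0-fold, 14.7-fold and 19.6-fold lower for Olr1428.

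The second question was which genes moved after 1 exposure only, at least 2-fold there and by under 0.5 on the log2 scale after each of the other two. After 1000 ppm CO, 177 of 25904 genes were higher in this way (0.683%) and 429 lower (1.66%), or 232 and 324 with quantile normalization and 95 and 134 with normexp. After 3000 ppm CO, 60 were higher (0.232%) and 19 lower (0.0733%), and after 5% O2, 255 were higher (0.984%) and 270 lower (1.04%). Beyond all the other 11 arrays lay 117 of the 177 and 186 of the 429, 43 of the 60 and 11 of the 19, and 205 of the 255 and 218 of the 270. The rule itself placed each of these genes beyond air and beyond both other exposed arrays of 0 h. The share over all genes was not counted, so these counts do not show that a change was particular to an exposure. Each such value rests on 1 array, and differences between exposures were not tested.

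After 1000 ppm CO alone, Plac9, a small secreted protein, was at 1.97 against -1.50 in air, -1.65 after 3000 ppm CO and -1.50 after 5% O2, a difference of 3.46 from air. Grhl3, a factor of epithelia, was 2.33 above air, Spata19, a sperm mitochondrial protein, 2.25, Dpp4, a peptidase that cuts incretins, 2.06 and Galnt16, a glycosyltransferase, 2.01. These were not all particular to that array over time, since Galnt16 was also 1.90 to 2.80 above air in 5 of the 8 later arrays, and a second probe of Dpp4 differed by 0.07. Of the lower genes, Krt6c, a keratin, was at -5.33 against -1.86 in air and was -0.18 and -0.04 from air on the other exposed arrays, and its later arrays reached -3.68 from air. Cdhr4, a cadherin-related protein, was at 0.52 against 3.12 in air, and Cfap206, a protein of motile cilia, was not well above background and at least 6.38-fold lower. Gtsf2, a germline gene, was 2.52 lower on the log2 scale (-2.52). Beside these lower genes, choroid plexus and ependyma markers were lowest on the same array (median -6.34), and their part was not tested.

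After 3000 ppm CO alone, Fcrl2, an Fc receptor-like protein, was at -0.56 against -3.38 in air, -3.44 after 1000 ppm CO and -3.88 after 5% O2, or 7.09-fold above air. It was 3.39 above air at 2 h after the same exposure and 2.63 above at 2 h after 5% O2, and below air in the other 6 later arrays. Hmx2, a homeobox factor, was 2.56 above air, Zscan25, a zinc finger protein, 2.13, Olr1092, an olfactory receptor, 2.13 and Cntnap5c, of the neurexin family, 1.72. Zscan25 was also 2.59 above air at 2 h after 1000 ppm CO. Of the lower genes, S100b, a calcium-binding protein of astrocytes, was at 0.61 against 2.31 in air, 1.84 after 1000 ppm CO and 2.23 after 5% O2, while the 9 astrocyte markers had a median of 0.15. P3h3, a collagen-modifying hydroxylase, was 3.11-fold lower by its brighter probe, but a second probe differed by 0.09. Kynu, kynureninase, and Itih4, a plasma protein, differed by -1.73 and -1.54. Of the 3 exposures this one, on the same slide as air, had the fewest genes past 2-fold.

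After 5% O2 alone, the named genes that were lower are known from neurons. Egr2, a factor induced by synaptic activity, was at -3.81 against 0.42 in air, -0.07 after 1000 ppm CO and 0.61 after 3000 ppm CO, or 18.8-fold lower. Egr4, of the same family, was at 0.91 against 3.85 in air, 3.79 and 3.88. For both, all later arrays were also below air, from -3.37 to -1.07 for Egr2 and down to -2.30 for Egr4. Crym, which binds thyroid hormone, was at 2.46 against 5.90 in air, 6.21 and 5.55, and its later arrays were within -0.33 to 0.63 of air. Itpka, a kinase of inositol trisphosphate in dendritic spines, was at 1.68 against 4.85 in air and was 0.36 and -0.03 from air after the CO exposures, and its lowest later array was 1000 ppm CO at 6 h (-1.13). All 16 medium spiny neuron markers were lower on the same 5% O2 array (median -3.23), and their part in these values was not tested. The named genes higher after 5% O2 alone were low in air, from -5.19 (Wnt3) to -2.15 (Zmat4). Upk3a, a uroplakin, was 2.18 above air, Wnt3, a Wnt ligand, 2.12, Vwa7 2.06, Trim54, a muscle ubiquitin ligase, 1.85 and Zmat4, a zinc finger protein, 1.73. All 5 were also above air by over 1 on the log2 scale on some later array: up to 1.98 for Wnt3, 1.66 for Vwa7, 1.65 for Trim54, 1.63 for Zmat4 and 1.48 for Upk3a. Wnt3, Zmat4 and Upk3a were higher at 6 h of 1000 ppm CO (1.98, 1.58 and 1.48) and at 12 h of 3000 ppm CO (1.72, 1.63 and 1.02) than on the other later arrays. The 8 septal and thalamic markers, added up as linear levels relative to each array's 75th percentile, came to 84.2 on the 5% O2 array of 0 h, 56.0 and 60.1 on those later arrays and 25.1 in air, and their part was not tested. Of the 8, Tnnt1 went the other way on the 5% O2 array of 0 h (-4.36 from air).

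**Figure D3:**
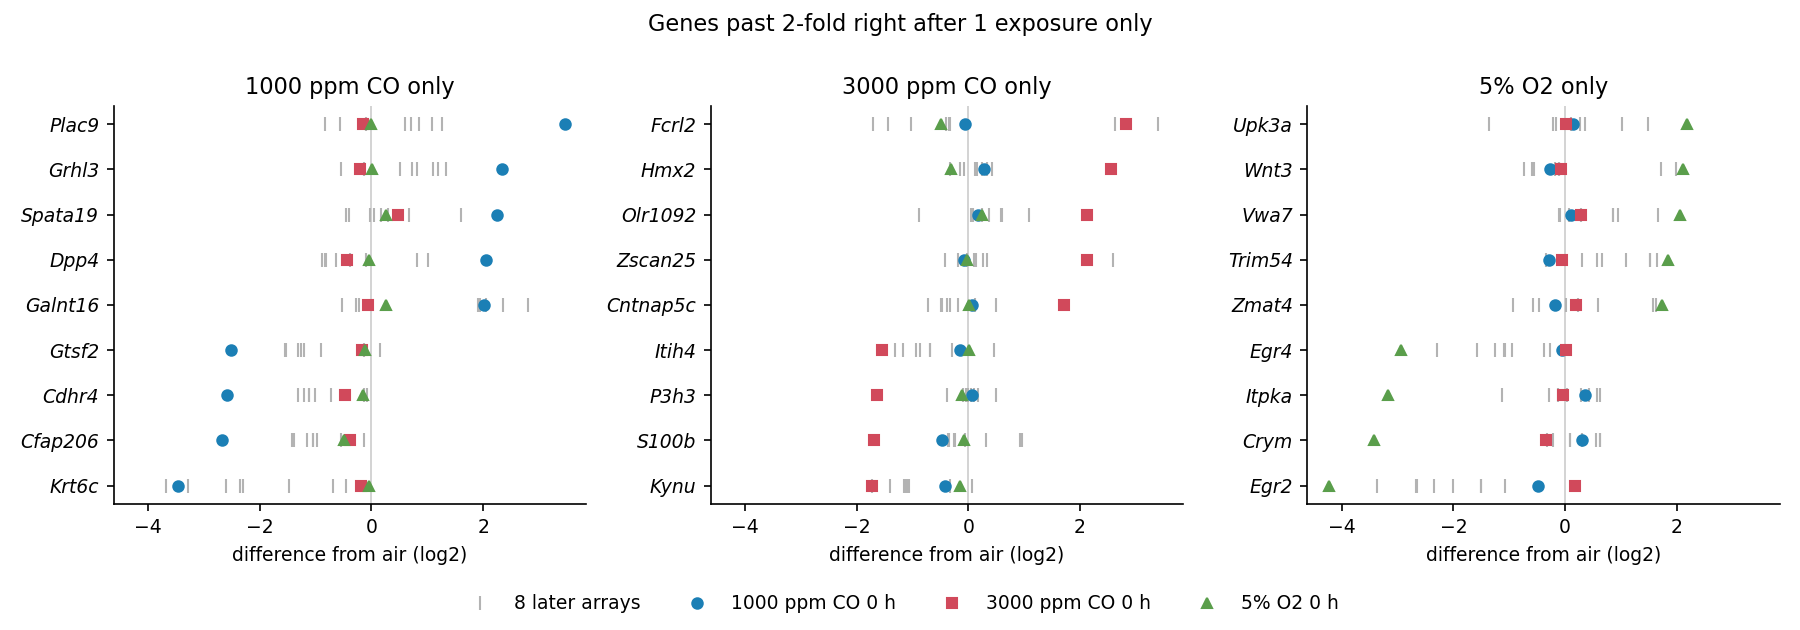
Difference from air (log2) of the named genes that were at least 2-fold from air after 1 exposure only, with a point for each of the 3 exposed arrays at 0 h and ticks for the 8 later arrays. Plac9 stood apart from its later arrays, while Galnt16, Krt6c, Fcrl2 and Zscan25 each had a later array farther from air.

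The neuronal activity list showed the same split. Of 18 members, 1, 1 and 3 were at least 2-fold higher after 1000 ppm CO, 3000 ppm CO and 5% O2, and 0, 0 and 8 were lower, with medians of 0.14, 0.07 and -0.66 (0.20, 0.10 and -0.43 over the 19 members well above background on any array). Those higher were 5.56%, 5.56% and 16.7%, beside 3.86%, 2.14% and 4.39% of all genes. The 8 lower after 5% O2 were 44.4%, beside 5.08%. Arc, a protein of active synapses, was -0.07, 0.18 and -2.65 from air, Plk2, an activity-induced kinase, 0.59, -0.02 and -2.72, and Inhba, an activin subunit, 0.56, 0.12 and -2.35. In the same 5% O2 array Sik1 (1.74), Nptx2, a synaptic pentraxin (1.32), and Bdnf, a neurotrophin (1.21), were higher. Arc was also below air in all later arrays, from -2.43 to -0.54. A total of 289 genes were at least 2-fold from air in opposite directions after different exposures.

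The chemokines Ccl2, Cxcl1 and Cxcl2 were highest after 5% O2. They are part of a wider list, in which Ccl3, another chemokine, was 1.42 above air after 1000 ppm CO. The cytokine Il1b was the lowest member there, at -1.59 from air, a limit because its dim side was raised. Ccl2, which attracts monocytes, was at -4.45 in air and at -4.85, -3.27 and -1.54 after 1000 ppm CO, 3000 ppm CO and 5% O2, and its later arrays were -0.84 to 0.76 from air. Cxcl1 and Cxcl2, which attract neutrophils, were not well above background in air or after 1000 ppm CO. Cxcl1 was at least 1.96-fold higher after 3000 ppm CO and at least 5.18-fold higher after 5% O2, and Cxcl2 at least 1.52-fold and 4.63-fold. Only 1 of the 8 later arrays was well above background for Cxcl1 and 0 for Cxcl2. Of the cytokine and chemokine list, 4 of 15, 1 of 17 and 4 of 18 compared members were at least 2-fold higher, with medians of -0.24, 0.30 and 0.42 (0.00, 0.19 and 0.33 over the 20 members well above background on any array), and no member passed the limma test in either contrast. Those higher were 26.7%, 5.88% and 22.2%, beside 3.86%, 2.14% and 4.39% of all genes. After 1000 ppm CO 1 member was lower (6.67%, beside 6.36%). Of 9 microglial markers, at most 1 passed 2-fold after any exposure, and their medians were 0.16, 0.08 and -0.08. The higher ones were 11.1%, 11.1% and 0.0% of the 9, beside the same shares of all genes.

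Genes of the hypoxia response were examined as a list. Of its compared members, 1 of 22, 2 of 23 and 2 of 23 were at least 2-fold higher (4.55%, 8.70% and 8.70%, beside 3.86%, 2.14% and 4.39% of all genes) and 0 lower, with medians of 0.15, 0.11 and 0.10. Bhlhe40, a clock and hypoxia repressor, was the only member higher after all 3 exposures, at 1.00, 1.06 and 2.04 above air, and its later arrays were also above air by 0.41 to 1.58. Adm, the vasodilator adrenomedullin, was 0.50, 0.73 and 2.82 above air, and its later arrays did not pass 1.01. Of 16 glucocorticoid-responsive genes, 3, 3 and 2 were at least 2-fold higher and 0, 0 and 1 lower (Fkbp5, a chaperone of the glucocorticoid receptor, -1.26 after 5% O2), with medians of 0.59, 0.28 and 0.44. Those higher were 18.8%, 18.8% and 12.5%, beside 3.86%, 2.14% and 4.39% of all genes. The 1 lower was 6.25%, beside 5.08%. Of 19 genes of the integrated stress response, 0, 0 and 2 were higher, and both were after 5% O2: Trib3, a pseudokinase (1.72), and Ppp1r15a, which restores translation (1.07). These 2 were 10.5% of the list, beside 4.39% of all genes.

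Heme proteins and the respiratory chain are targets of CO by its chemistry, and a list of genes was examined for each. Of the 21 members of the heme and antioxidant list, 0 passed 2-fold after any of the 3 exposures, with medians of -0.05, 0.08 and 0.06, and Hmox1, the heme oxygenase that itself makes CO, was 0.26, 0.05 and 0.31 above air. Of the 24 listed respiratory chain genes, which do not include Cox8b, 0 passed 2-fold, with medians of -0.05, -0.09 and 0.01 and all values between -0.39 and 0.62. For all genes the shares were 3.86%, 2.14% and 4.39% higher and 6.36%, 2.15% and 5.08% lower. At those shares, few members of lists this short would pass on any 1 array. In the heat shock list 1 member was lower after 1000 ppm CO and 1 higher after 3000 ppm CO, and the medians were -0.35, -0.12 and -0.16. Each was 5.56% of that list, beside 6.36% of all genes lower after 1000 ppm CO and 2.14% higher after 3000 ppm CO. No member of these lists passed the limma test in either contrast, which does not show that their levels were equal.

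**Figure D4:**
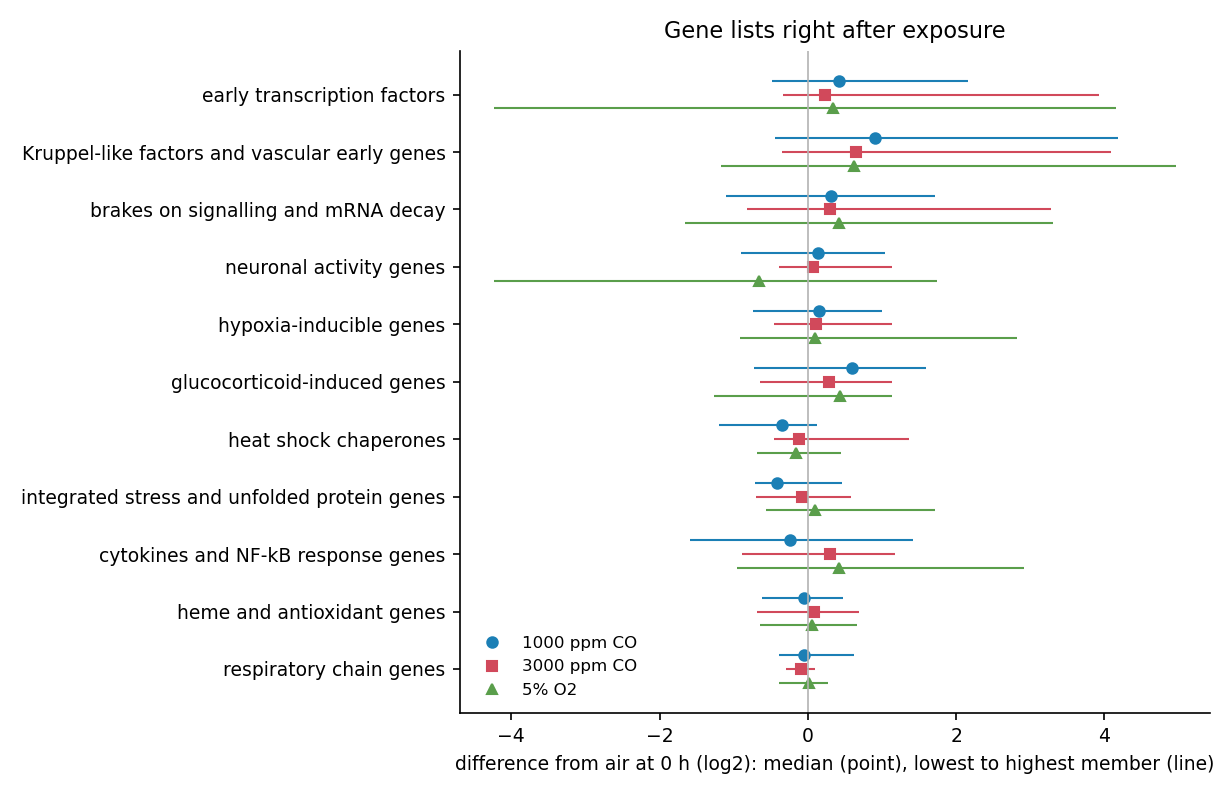
Median difference from air (point, log2) and lowest to highest member (line) of the pathway lists right after each of the 3 exposures. Medians are over the members compared with air; that of the Krüppel-like and vascular list was 0.91, 0.65 and 0.62, and the neuronal activity list was at -0.66 after 5% O2.

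**Figure D5:**
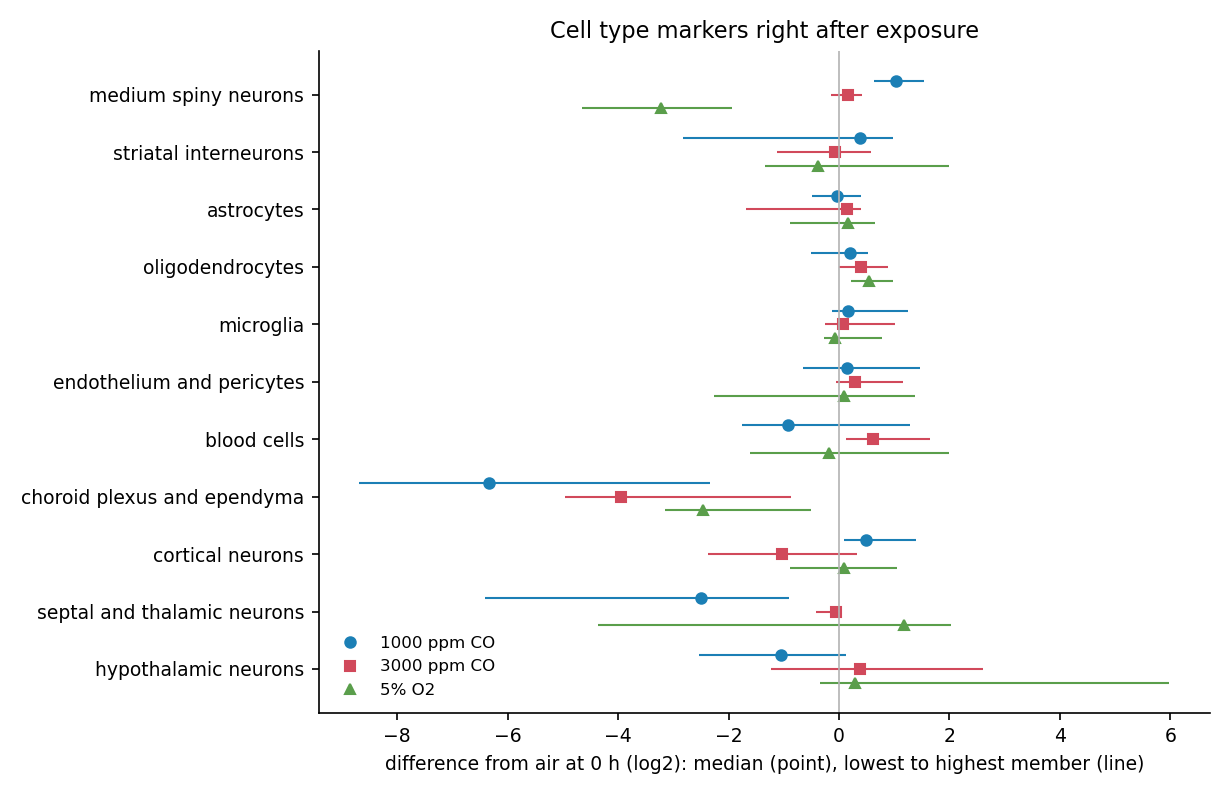
Median difference from air (point, log2) and lowest to highest member (line) of the cell type marker lists right after each of the 3 exposures. Choroid plexus and ependyma lay below air after every exposure (-6.34, -3.94 and -2.47), and medium spiny neurons below air after 5% O2 only (-3.23).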

How the data were processed

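RNA of the striatum was labelled with Cy3 and hybridised to Agilent 1-colour rat arrays, 12 in all, 1 per exposure and time. The authors deposited scanner tables made with Agilent Feature Extraction 10.7.3.1, per the submitters' processing notes; the gProcessedSignal column holds a background-corrected intensity per spot, and probe positions are in rn4, per the file headers. Spots flagged as outliers and control spots were left out, which left 40998 of 41012 probes (14 had no usable spot). Spots of a probe were averaged, the log2 of each array's 75th percentile was subtracted, and the brightest probe stood for a gene with several (4681 of 35153 genes or transcripts; 16229 have a symbol). The deposited series table holds log2 values that followed the processed signal of each array (Pearson's r of at least 0.9999 over probes, column medians of 0.002 to 0.006), so it was taken as log2 values centred near each array's median, by a method not given in the sources used here; it was used as an alternative only.

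A gene was compared with air when well above background on the brighter array and called at 2-fold, with no test, since each exposure had 1 array. limma 3.58.1 (R 4.3.3) fitted 27042 genes well above background on at least 3 arrays, on values without the lower limit for dim probes, with exposure and time as additive factors (5 residual degrees of freedom, prior 2.16). The labels give no replicates, so p-values measure only the spread between these 12 arrays that exposure and time leave. Named genes are those with a symbol: the 14 higher and 8 lower after all 3 exposures with the largest smallest difference, the 5 higher and 4 lower per exposure with the largest gap to the other 2, those past the limma threshold (up to 8 in each direction), and members of the lists. Features named outside this rule (Bcl6b, Ntf3, BG664685 and FQ076543) were chosen after their values were seen. The 22 lists name 331 genes, of which 321 are on the array. A list member that met the rule for a closer look is not reported here. Members and lists were chosen with earlier results of these data known. Promoters came from RefSeq (GRCr8, 33469 sequences). Scripts in Python 3.11.15 (numpy 2.4.6, pandas 2.3.3, matplotlib 3.10.9) were tested on simulated data. Alternatives changed the background correction, scaling, filter, threshold, reference, probe rule, variance prior, slide, position and arrays.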

Additional observations from a re-analysis of the deposited data

Results flagged for a closer look

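The list members given here were at least 2-fold above air right after 1 exposure and at least 2-fold below it right after another. Each value here is the log2 gap between the highest and the lowest of the 3 differences from air; the exposures have 1 array each, and the difference between them was not tested. Among markers of the septum, thalamus and hypothalamus the gap was 7.93 for Shox2, a thalamic homeobox factor, 7.71 for Pmch, the precursor of melanin-concentrating hormone, 6.7 for Slc17a6, the vesicular glutamate transporter of subcortical neurons, and 3.92 for Tcf7l2, a factor of thalamic neurons. Shox2 was not well above background after 1000 ppm CO, so its gap is a lower limit.

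Medium spiny neuron markers were above air after 1000 ppm CO and below it after 5% O2, with gaps of 5.17 for Adora2a, 4.99 for Drd1, 4.93 for Rgs9, 4.77 for Ppp1r1b, 4.23 for Penk, 4.0 for Pdyn, 3.91 for Tac1, 3.76 for Pde10a and 3.13 for Rasd2. Other neuronal genes were Prkcd, a protein kinase C (4.46), the interneuron genes Vip (4.19) and Calb2 (4.06), and the cortical genes Neurod2 (3.65) and Slc17a7 (2.61; its dimmer second probe differed by 1.67, -0.80 and 1.43). Outside neurons the gap was 3.72 for Anpep, a pericyte peptidase, by its brighter probe (a second probe differed from air by 0.29, -0.05 and 0.33 after 1000 ppm CO, 3000 ppm CO and 5% O2), and 2.58 for the heat shock gene Hspa1b.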

How the results depend on the processing

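No paired analysis was possible because the groups share only replicate number 1, with 1 array in each. Of the values for single genes under all alternatives, 574 kept their direction and side or moved by little, 65 moved, 43 lost the threshold, 9 gained it and 2 changed sign: with the median of the 12 arrays as reference, the mean difference was -0.03 for Ptk6 and -0.01 for Col7a1. Counts below follow the order 1000 ppm CO, 3000 ppm CO, 5% O2. The reported ones were 2691, 1133 and 2582 genes past 2-fold, then 105 higher and 290 lower after all 3 exposures, then, after 1 exposure only, 177, 60 and 255 higher and 429, 19 and 270 lower.

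With normexp background correction, which moved the median of all genes from 0.01, 0.02 and 0.03 to 0.13, 0.00 and 0.12, the counts were 960, 374 and 974, then 16 (all 16 among the 105) and 116, then 95, 17 and 189 higher and 134, 11 and 111 lower. With only genes well above background on all 4 arrays, 650 passed after 3000 ppm CO, and 56 and 123 passed after all 3. With no filter on dim probes the counts were 5024, 2275 and 4295, then 302 and 504, then 572, 244 and 553 higher and 702, 51 and 321 lower. At 1.5-fold they were 7220, 2970 and 6707, then 382 and 592, then 1174, 286 and 1197 higher and 1548, 131 and 1043 lower. At 3-fold they were 910, 396 and 836, then 17 and 125, then 17, 21 and 39 higher and 90, 3 and 63 lower. Against the median of the 12 arrays they were 797, 482 and 1692, then 15 and 0, then 42, 124 and 259 higher and 170, 31 and 338 lower. With under 1 log2 unit allowed in the other two exposures, 434, 189 and 594 were higher and 946, 86 and 710 lower after 1 exposure only. Leaving out 1 exposed array, which asks for agreement of 2 exposures in place of 3, gave 175 to 251 higher and 344 to 471 lower.

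In the limma test against air (1 gene), 0 passed with normexp, with genes well above background on all arrays, with a trended and robust variance prior, with slide as a random block (correlation 0.814), with only the 4 arrays at 0 h, and without 5% O2 at 0 h and 1000 ppm CO at 6 h; under these 6 alternatives 606, 1471, 1814, 916, 844 and 2105 genes were below 0.05 without adjustment. With no filter 79 passed (9 higher and 70 lower), and leaving out 1 array gave 0 to 2. In the test against 2 and 6 h (6 genes), 3 passed with normexp, 1 (Ccn1) with slide position in the model and 0 without the 2 arrays, and leaving out 1 array gave 3 to 10. The cause of these shifts was not tested, except that a looser or stricter filter changes how many genes are compared.

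Dim genes limit the rest: 49 of the 105 higher genes were not well above background in air, so their folds are lower limits set by each array's lowest measured signal.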
